A study of Rattus norvegicus with 6 samples.

Results

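The growth cone proteins and stathmins are a group of 10 genes whose products act on the membrane skeleton and the microtubules of growing axon tips. They were taken by symbol (Gap43, Basp1, Stmn1, Stmn2, Stmn3, Stmn4, Marcks, Marcksl1, Dpysl2 and Dpysl3) from tables of 32623 genes and 40808 transcripts, in which they hold 10 genes and 17 transcripts. All 10 genes and all 17 transcripts passed the filter on low values, which asked for 0.5 FPKM or more on average across libraries. FPKM counts sequenced fragments per kilobase of transcript, scaled to the library's total. For a gene the length used is 1 fixed value, so a comparison between genes depends on it.

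Female Wistar rats, 8 weeks old per the labels and all with a model of spinal cord injury, gave the spinal cord RNA. In 3 libraries the treatment was electrical stimulation (ES), and 3 libraries came from injured rats without it (SCI). No uninjured cord was among the samples analysed here. The sources used here do not give the level and kind of injury, the site and settings of stimulation or the time of sampling. Nothing in the labels ties 1 library to 1 rat, so every p-value reflects the spread among these libraries alone, and that spread may be technical.

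A growth cone extends when its membrane and actin skeleton push forward and microtubules follow from behind. GAP43, BASP1 (also CAP-23), MARCKS and MARCKSL1 lie on the inner face of the membrane, where they bind acidic lipids such as PIP2 and release them, with actin, when calmodulin or protein kinase C acts on them. Stathmins bind free tubulin and favour microtubule shrinkage until they are phosphorylated, and the collapsin response mediator proteins (CRMPs) DPYSL2 and DPYSL3 couple guidance cues to tubulin and actin. In the injured nervous system several of these genes are known as markers of regrowing axons, but most are also expressed in glia, immune cells or dividing cells, so bulk tissue does not assign them to neurons. In bulk samples, fewer cells of a type and less RNA per cell cannot be told apart.

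All 4 stathmin genes and Gap43 were higher in ES, by 1.35-fold to 1.72-fold, and Dpysl3 was lower, at 0.704 times its SCI mean. Dpysl2 and Marcks were higher by 1.18-fold and 1.06-fold, and Basp1 and Marcksl1 did not pass the test. Thus 7 of the 10 genes were higher and 1 was lower, where 17.4% of the 15750 genes tested were called higher and 27.6% lower (limma on log2(FPKM + 1), adjusted p under 0.05 over all genes). Every ES library lay above every SCI library in those 7 genes and below in 1, beside 21.9% and 34.6% of all genes tested. The median log2 fold change was 0.33 over the 10 genes and -0.06 over all genes tested. By mean FPKM the 10 genes lay between percentiles 82.4 and 97.7 of the genes tested, and the shares over all genes are not matched for level.

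The 4 members with more than 1 transcript are Stmn1, Stmn3, Stmn4 and Dpysl3. The promoters of 6 members were found in RefSeq (GRCr8), and those of Stmn1, Stmn3 and Dpysl3 are shown here because these genes moved at gene level and have several transcripts. Each line gives the 250 bases before a RefSeq transcription start, 5′ to 3′ on the gene's strand, with capitals for matches to the GC box GGGCGG, the CCAAT box, the TATA box TATAAA, the E-box CACGTG and the E2F letters TTTGGCGC on either strand.
Stmn1 (chr5:151964929-151965178, plus strand): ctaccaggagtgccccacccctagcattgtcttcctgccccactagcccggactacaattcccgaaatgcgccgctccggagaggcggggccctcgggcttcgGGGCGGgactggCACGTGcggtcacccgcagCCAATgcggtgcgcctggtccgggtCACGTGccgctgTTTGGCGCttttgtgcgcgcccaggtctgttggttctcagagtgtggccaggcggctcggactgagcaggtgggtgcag
Stmn3 (chr3:188802495-188802744, minus strand): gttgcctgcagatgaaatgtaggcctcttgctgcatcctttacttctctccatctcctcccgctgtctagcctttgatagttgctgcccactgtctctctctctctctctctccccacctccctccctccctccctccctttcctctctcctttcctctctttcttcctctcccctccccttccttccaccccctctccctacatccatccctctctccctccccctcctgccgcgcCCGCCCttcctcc
Dpysl3, distal start (chr18:35731153-35731402, minus strand): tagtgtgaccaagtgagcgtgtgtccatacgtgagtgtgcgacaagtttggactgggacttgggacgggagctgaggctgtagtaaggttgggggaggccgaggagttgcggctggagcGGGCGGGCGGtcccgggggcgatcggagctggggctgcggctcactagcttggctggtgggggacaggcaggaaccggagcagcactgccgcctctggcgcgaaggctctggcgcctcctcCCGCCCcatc
Dpysl3, proximal start (chr18:35688512-35688761, minus strand): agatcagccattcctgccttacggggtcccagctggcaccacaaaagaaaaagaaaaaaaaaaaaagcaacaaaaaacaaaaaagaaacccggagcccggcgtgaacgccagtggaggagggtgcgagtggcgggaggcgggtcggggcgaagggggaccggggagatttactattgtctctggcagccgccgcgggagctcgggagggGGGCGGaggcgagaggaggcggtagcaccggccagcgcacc
In the Stmn1 window the E2F letters begin 79 bases before the start, the E-box letters 135 and 91 bases before it, the CCAAT box 116 and the GC box 147 bases before it. Of 33469 RefSeq rat windows of this length, 0.412% hold the E2F letters, 5.59% the E-box, 34.0% a CCAAT box, 30.5% a GC box and 12.9% TATAAA. The Stmn3 window is a long run of C and T with 1 GC box match, on the opposite strand and 13 bases before the start. The distal Dpysl3 window holds 3 GC box matches, of which 2 overlap, and the proximal one holds 1. None of the 4 windows holds TATAAA, and their G and C content is 67.6%, 59.2%, 67.2% and 61.2%, against a median of 51.2% over all windows. These matches describe letters and do not show binding.

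**Figure D1:**
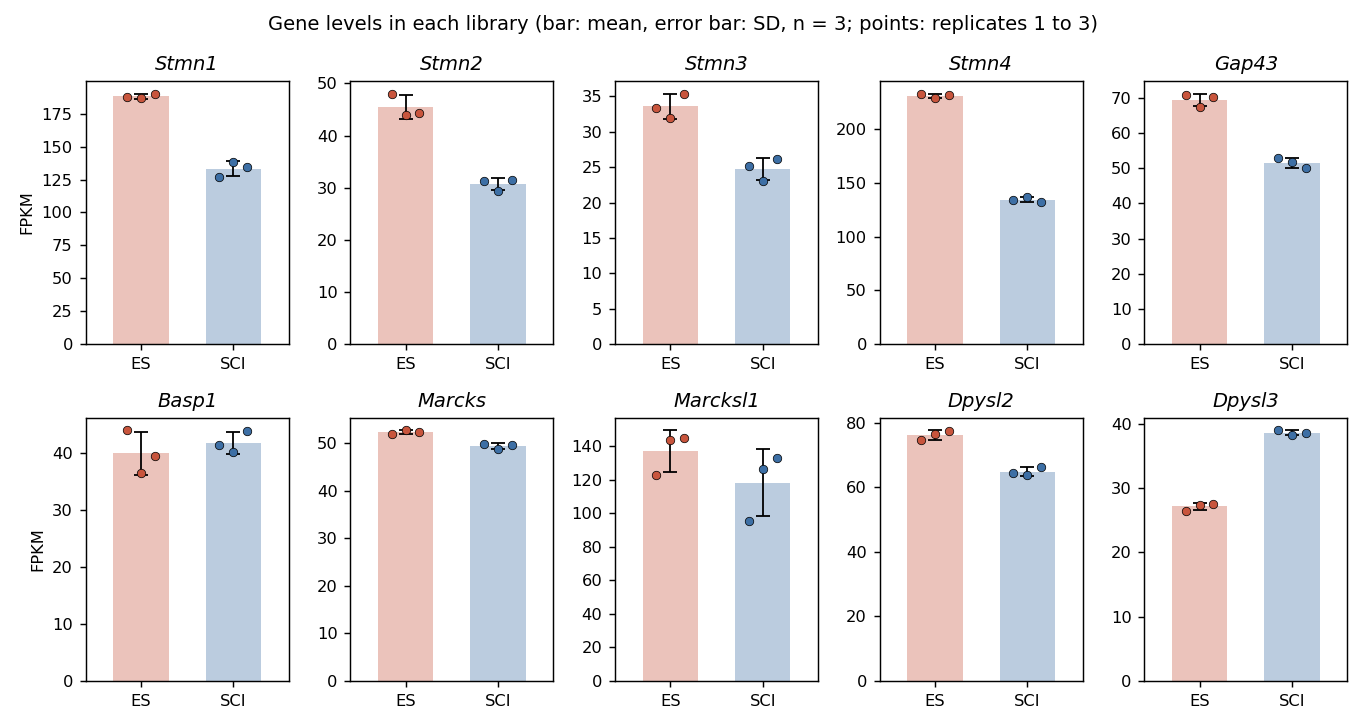
FPKM (y axis, from 0) of the 10 genes in ES (red, left) and SCI (blue, right) libraries; points are replicates 1 to 3, bars the means and error bars the SD (n = 3). The ES points of Stmn1 to Stmn4, Gap43, Marcks and Dpysl2 lie above all SCI points, those of Dpysl3 below them, and those of Basp1 and Marcksl1 overlap.

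Stmn4, also known as RB3, showed the largest change of the 10. The gene (ENSRNOG00000053334, chr15:43007908-43025852, plus strand, coordinates as the files give them) had levels of 232, 229 and 231 FPKM in the ES libraries, numbered 1 to 3, and of 134, 136 and 132 FPKM in the SCI libraries. The groups were far apart and each was tight (230.8 ± 2.02 against 134 ± 2.11 FPKM, SD, n = 3 each). The log2 fold change was 0.78 ± 0.02 (SE) with a limma adjusted p of 2.90e-06. Between 3091 and 5281 read pairs per library lay behind these values. By gene FPKM, Stmn4 was the highest of the 10 genes in ES. Its order against Stmn1 depends on the fixed gene lengths, 1413 bases for Stmn4 and 1815 for Stmn1. Stmn1 had 3768 to 5576 read pairs per library. In SCI the gene FPKM ranges of Stmn4 and Stmn1 overlapped.

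Stmn1, the founding stathmin or oncoprotein 18, is made by neurons and by dividing cells and is switched off by phosphorylation in mitosis. At chr5:152680407-152686806 (ENSRNOG00000016810) it had 188, 187 and 190.3 FPKM in ES replicates 1 to 3, against 127, 138 and 134 FPKM in SCI. No SCI library came near the lowest ES library, and the fold was 1.41 (log2 fold change 0.50 ± 0.03 SE, limma adjusted p = 7.91e-05).

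Stmn2, also called SCG10, is held on membranes by palmitoylation, is made largely by neurons and is used as a marker of regrowing sensory axons. Its levels (ENSRNOG00000011705, chr2:95424251-95472115) were 48.1, 43.9 and 44.4 FPKM in ES replicates 1 to 3 and 31.2, 29.3 and 31.4 FPKM in SCI. The groups did not overlap, and the fold was 1.48 (log2 fold change 0.55 ± 0.05 SE, limma adjusted p = 0.000180). Stmn3, the SCG10-like stathmin, had the lowest gene FPKM of the family, with a fixed length of 1132 bases. Its main transcript, of 850 bases, had 40.2 to 44.9 FPKM in ES and 28.9 to 32.6 FPKM in SCI. Both ranges overlap those of Stmn2. In ES replicates 1 to 3 the Stmn3 gene stood at 33.4, 31.9 and 35.4 FPKM, and in SCI at 25.1, 23.1 and 26.1 FPKM (ENSRNOG00000013657, chr3:176808017-176816162). Again every ES library was above every SCI library (1.35-fold, log2 fold change 0.42 ± 0.06 SE, limma adjusted p = 0.00144).

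Unequal change was tested in pairs of stathmins by exact permutation, which with 3 libraries per group could pass no pair at the threshold used here. The test therefore cannot tell whether the stathmins changed alike. The ratios below use gene FPKM, whose fixed lengths set their size in both groups alike. Within a library, the level of Stmn4 was on average 1.23 times that of Stmn1 in ES and 1.01 times in SCI. The same ratio to Stmn2 averaged 5.08 in ES and 4.38 in SCI, and to Stmn3 6.88 in ES and 5.42 in SCI. For these 3 pairs the ES and SCI ratios did not overlap. The exact two-sided permutation p was 0.1, the smallest that 3 against 3 libraries can give, and 0.2 after adjustment over the 6 pairs of stathmins. The other 3 pairs, without Stmn4, overlapped between the groups (exact permutation p = 0.2, 0.5 and 0.6). This comparison was chosen after the values were seen.

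**Figure D2:**
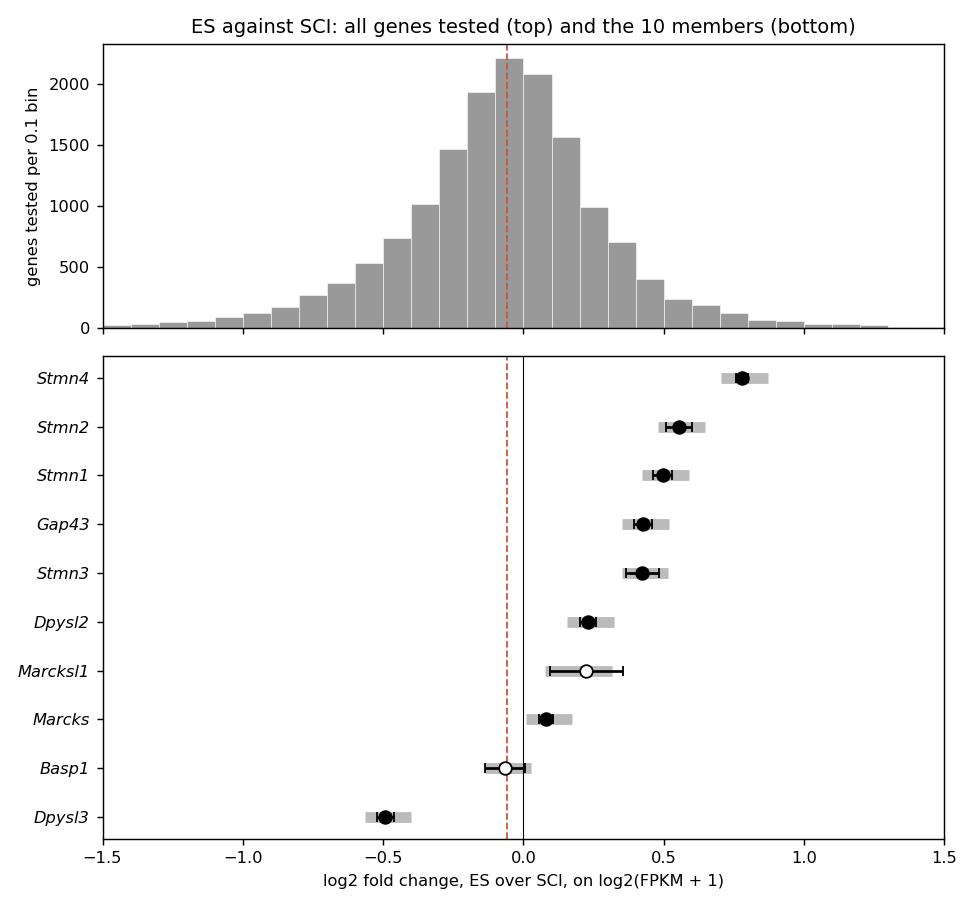
Top, number of tested genes (y axis) in bins of 0.1 of the log2 fold change of ES over SCI (x axis, log2(FPKM + 1) scale), drawn between -1.5 and 1.5; bottom, the 10 genes with the SE as error bar, filled where the limma adjusted p is under 0.05. Grey bands give the range over the other processing settings and the dashed line the median of all genes tested, -0.06; Stmn4 lies farthest to the right at 0.78 and Dpysl3 farthest to the left at -0.49.

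Among the membrane proteins, Gap43 and Basp1 are often grouped as growth cone partners, and they differed here. Gap43, the neuromodulin of extending axons (ENSRNOG00000001528, chr11:58624198-58717914), had 70.7, 67.5 and 70.2 FPKM in ES replicates 1 to 3, against 52.8, 51.8 and 49.9 FPKM in SCI. The ES values formed a separate, higher group (1.35-fold, log2 fold change 0.43 ± 0.03 SE, limma adjusted p = 0.000125). Basp1, whose loss in mice can be partly made up by GAP43, had 43.9, 36.4 and 39.4 FPKM in ES replicates 1 to 3 and 41.3, 40.1 and 43.8 FPKM in SCI. Its ES library 1 was above all SCI libraries and the other two below, so the groups overlapped (ENSRNOG00000046313, chr2:77586424-77632628; log2 fold change -0.07 ± 0.07 SE, limma adjusted p = 0.482). With 562 to 832 read pairs per library, Basp1 rests on fewer fragments than Gap43, with 1268 to 1680.

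Marcks encodes the main protein kinase C substrate of this family and is made by many cell types. Its level (ENSRNOG00000000579, chr20:42966140-42971838) was 51.9, 52.7 and 52.3 FPKM in ES replicates 1 to 3, against 49.8, 48.8 and 49.7 FPKM in SCI. The groups did not overlap, but the change was small (1.06-fold, log2 fold change 0.08 ± 0.02 SE, limma adjusted p = 0.0360). That call was lost when any single library was left out (adjusted p from 0.0619 to 0.110), without the mean-variance trend (0.110), and after rescaling to equal FPKM totals (0.804, log2 fold change 0.0083). Marcksl1, its smaller relative, had 123, 144 and 145 FPKM in ES replicates 1 to 3 and 95.6, 126 and 133 FPKM in SCI (ENSRNOG00000009113, chr5:147714163-147716485). Replicate 1 was the low library in both groups, and the groups overlapped (1.16-fold, log2 fold change 0.22 ± 0.13 SE, limma adjusted p = 0.210). Without SCI replicate 1 the log2 fold change was 0.08.

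The CRMP members went in opposite directions. Dpysl2 encodes CRMP2, which carries tubulin dimers to growing microtubules and loses that binding when GSK3 and CDK5 phosphorylate it. It had 74.5, 76.5 and 77.4 FPKM in ES replicates 1 to 3, against 64.4, 63.8 and 66.2 FPKM in SCI (ENSRNOG00000009625, chr15:43477629-43542939). All ES libraries were higher (1.18-fold, log2 fold change 0.23 ± 0.03 SE, limma adjusted p = 0.000871). Dpysl3 encodes CRMP4, which binds actin and tubulin and is abundant in the developing nervous system. Its level (ENSRNOG00000018992, chr18:37716143-37819097) was 26.5, 27.4 and 27.6 FPKM in ES replicates 1 to 3 and 39.0, 38.3 and 38.5 FPKM in SCI. The ES libraries were all lower by about the same amount (log2 fold change -0.49 ± 0.03 SE, limma adjusted p = 4.34e-05).

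Ordered by gene FPKM in ES, the 10 genes ran Stmn4, Stmn1, Marcksl1, Dpysl2, Gap43, Marcks, Stmn2, Basp1, Stmn3 and Dpysl3. No neighbours in that order had overlapping ranges. In SCI the order was Stmn4, Stmn1, Marcksl1, Dpysl2, Gap43, Marcks, Basp1, Dpysl3, Stmn2 and Stmn3. There the ranges of Stmn4 and Stmn1, and of Stmn1 and Marcksl1, overlapped. Dpysl3 was thus last in ES and above Stmn2 and Stmn3 in SCI. These orders depend on the fixed gene lengths. That length is 1815 bases for Stmn1 and 1132 for Stmn3, whose leading transcripts have 976 and 850 bases.

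The authors' deposited table marked none of the 10 genes as significant. Among the 10 genes and their 17 transcripts, each marked row had a p-value under 0.05 and a log2 fold change beyond 1 in either direction. A marked transcript had a q-value of 0.0856. No gene of the 10 reached that fold, and the rule behind the mark was not tested over all genes. The q-value in the authors' deposited table was 1.61e-28 for Stmn4, 4.19e-12 for Stmn1, 1.73e-06 for Dpysl3, 0.114 for Marcks, 0.0494 for Marcksl1 and 1 for Basp1. At transcript level the authors' deposited table marked 2 Stmn1 transcripts, ENSRNOT00000076736 and ENSRNOT00000076864 (q-values of 0.0452 and 0.0856).

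Of the 17 transcripts 11 were called, 8 higher and 3 lower (limma, adjusted p under 0.05 over 19223 transcripts), where 32.3% of all transcripts tested were called, 12.8% higher and 19.5% lower. Each gene value in the files equals the fragments of its transcripts over 1 fixed length. Dividing the same fragments otherwise among transcripts does not move it. A shift to longer transcripts at an equal number of molecules would raise it, and the part of such a shift in the gene folds was not tested. The transcripts of Stmn1 went in opposite directions. The retained-intron transcript ENSRNOT00000076736 (3 exons, chr5:152681112-152684129) had 4.37, 3.67 and 3.77 FPKM in ES replicates 1 to 3, against 11.4, 13.9 and 13.5 FPKM in SCI. It was lower in every ES library (0.304-fold, log2 fold change -1.50 ± 0.10 SE, limma adjusted p = 0.000249). The 4-exon coding transcript ENSRNOT00000076864 begins upstream of the others and ends before the 5-exon transcripts (chr5:152680407-152685974). It had 16.2, 26.6 and 32.9 FPKM in ES replicates 1 to 3, against 51.2, 57.7 and 59.0 FPKM in SCI. The groups did not overlap (0.451-fold, log2 fold change -1.17 ± 0.25 SE, limma adjusted p = 0.0176), and the call was lost without SCI replicate 2 or 3 (0.0552 and 0.0595).

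A pair of 5-exon coding transcripts of Stmn1 share their end, at position 152686806 of chromosome 5, and their starts lie 30 bases apart. ENSRNOT00000076052 had 209, 328 and 332 FPKM in ES replicates 1 to 3, against 197, 212 and 203 FPKM in SCI. ES replicate 1 lay near the SCI libraries, and the transcript did not pass (log2 fold change 0.47 ± 0.19 SE, limma adjusted p = 0.110). The other transcript, ENSRNOT00000022574, had 118 FPKM in ES replicate 1 and at most 0.0957 FPKM in the other 5 libraries (limma adjusted p = 0.406). The pair was therefore also summed, a choice made after the values were seen. The sum was 311, 304 and 307 FPKM in ES replicates 1 to 3 and 182, 196 and 188 FPKM in SCI (1.63-fold, log2 fold change 0.70 ± 0.03 SE, limma adjusted p = 7.19e-05). It took 96.2%, 94.6% and 93.7% of the gene's estimated fragments in ES and 83.2%, 82.3% and 81.5% in SCI.

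Whether the transcripts of a gene changed unequally was tested with diffSplice and a Simes p, which called 13.3% of 2589 genes with at least 2 tested transcripts. Stmn1 did not pass with the transcripts as deposited (adjusted p = 0.248). With the 5-exon pair summed its adjusted p was 4.70e-05, and without ES replicate 1 it was 5.52e-07. Stmn3 passed at an adjusted p of 0.0494, a call that held in 1 of 9 other settings. The call was lost when any single library was left out (0.0569 to 0.161) and with a pseudocount of 0.1 (0.194). Its main transcript ENSRNOT00000018697 took 95.0%, 94.6% and 95.3% of fragments in ES replicates 1 to 3 and 94.7%, 93.8% and 93.8% in SCI, and it was the one that was higher (log2 fold change 0.44 ± 0.06 SE, limma adjusted p = 0.00404).

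**Figure D3:**
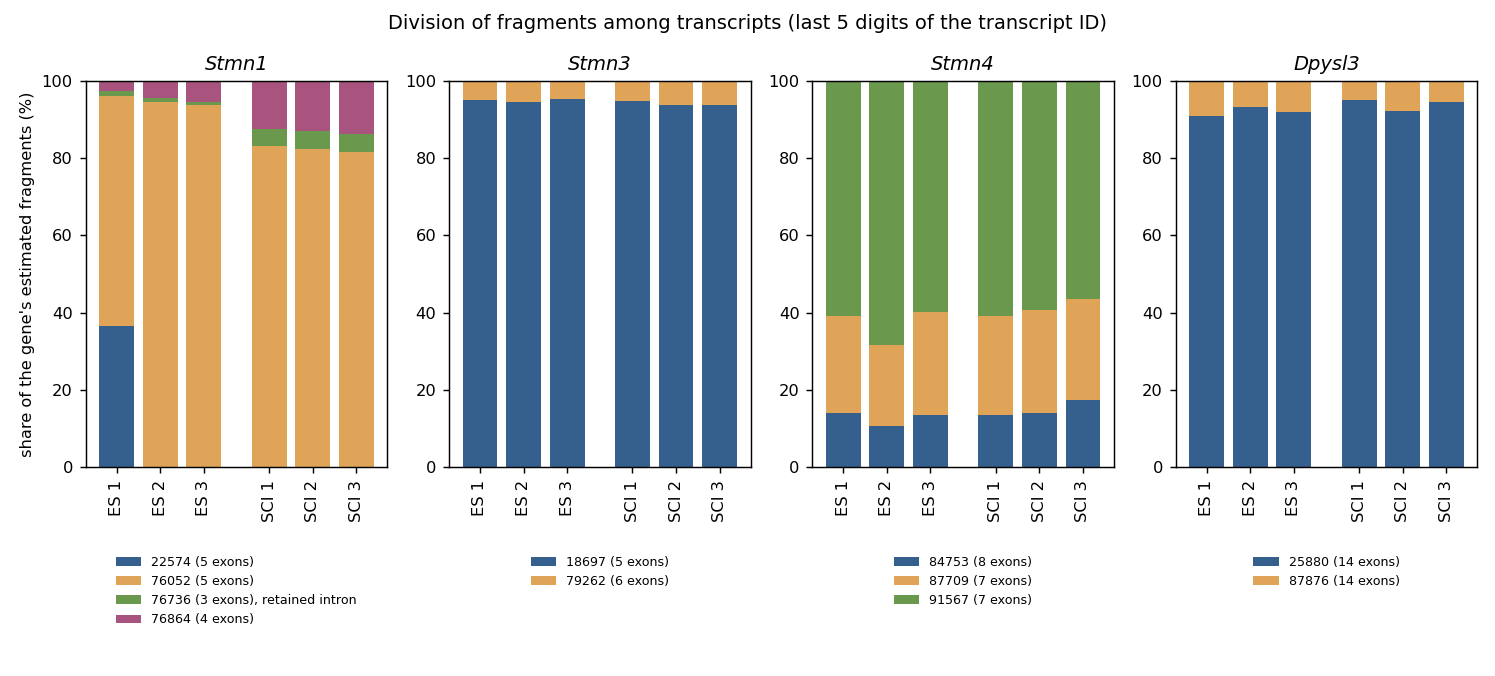
Share of each gene's estimated fragments (y axis, %) per library (x axis) for the 4 genes with several transcripts; colours are transcripts, named by the last 5 digits of their identifiers. The green and purple Stmn1 transcripts (retained intron and 4 exons) take smaller shares in the ES libraries, ES replicate 1 divides the 5-exon pair, and the leading Stmn3 transcript takes 93.8% to 95.3% in all 6 libraries.

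Stmn4 has 3 transcripts that share both ends, and all 3 were higher in ES. The leading 7-exon transcript ENSRNOT00000091567 had 147, 162 and 144 FPKM in ES replicates 1 to 3, against 84.8, 84.0 and 77.6 FPKM in SCI (1.84-fold, log2 fold change 0.87 ± 0.06 SE, limma adjusted p = 0.000271). ENSRNOT00000087709 was 1.59-fold higher (limma adjusted p = 0.00474). The 8-exon ENSRNOT00000084753 was 1.47-fold higher (limma adjusted p = 0.0349), a call that held in 10 of 17 other settings. The division among the 3 did not pass the usage test (adjusted p = 0.315).

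The Dpysl3 transcripts begin 42644 bases apart in the files' coordinates, and the RefSeq starts shown above lie 42641 bases apart in GRCr8. The distal-start transcript ENSRNOT00000025880 carried the gene's change, with 25.3, 26.7 and 26.5 FPKM in ES replicates 1 to 3, against 38.8, 37.0 and 38.1 FPKM in SCI. All ES values were lower (0.689-fold, log2 fold change -0.52 ± 0.04 SE, limma adjusted p = 0.000290). The proximal-start transcript ENSRNOT00000087876 had 3.53, 2.72 and 3.34 FPKM in ES replicates 1 to 3, against 2.91, 4.40 and 3.09 FPKM in SCI. Its groups overlapped (log2 fold change -0.08 ± 0.15 SE, limma adjusted p = 0.741). A difference in usage between the starts did not pass (adjusted p = 0.113), except without SCI replicate 2 (0.0142).

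Other CRMPs and microtubule regulators of axons were set beside the 10 genes. Of 19 tested, 7 were higher, 2 lower and 10 did not pass, with a median log2 fold change of 0.12. Of all genes tested, 17.4% were called higher and 27.6% lower, 45% in either direction. Dpysl4, encoding CRMP3, had 30.9, 30.5 and 31.1 FPKM in ES replicates 1 to 3, against 14.3, 13.2 and 13.8 FPKM in SCI, a larger change than any of the 10 genes (2.24-fold, log2 fold change 1.11 ± 0.04 SE, limma adjusted p = 4.93e-06). Crmp1, named for its family after its values were seen, was 1.37-fold higher. The neuronal tubulin Tubb3 and the microtubule protein Map1a were 1.40-fold and 1.28-fold higher. Dclk1, a doublecortin-like kinase, and Apc, which binds microtubule plus ends, were lower, at 0.561-fold and 0.712-fold.

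Of 13 rows for calmodulin, protein kinase C and lipid partners of the membrane proteins, 7 were higher, 3 lower and 3 did not pass, with a median of 0.12. The shares over all genes tested were 17.4% higher and 27.6% lower. Calmodulin gene Calm2 stands in 2 rows, and both were higher (1.41-fold and 1.10-fold), but reads from near-identical copies may be divided between them. Pcp4, a small calmodulin-binding protein, was 1.55-fold higher. Prkca, a protein kinase C, the adhesion molecule Ncam1 and the calcineurin subunit Ppp3ca were lower, at 0.698-fold, 0.847-fold and 0.860-fold.

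Among 15 actin regulators of the growth cone, 7 were higher, 2 lower and 6 did not pass (median 0.12), beside 17.4% and 27.6% of all genes tested. Wasf1, a WAVE complex subunit that drives branched actin, was 2.27-fold higher, with 18.5, 18.4 and 17.7 FPKM in ES against 8.08, 7.79 and 8.18 FPKM in SCI (log2 fold change 1.09 ± 0.04 SE, limma adjusted p = 6.66e-06). The actin-severing Cfl1 and the actin monomer binder Tmsb4x were each 1.19-fold higher. Gsn, another severing protein, and Tmsb10, another monomer binder, were lower, at 0.829-fold and 0.591-fold.

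Kinases that act on stathmin or CRMP2, partners of such kinases and phosphatase subunits made up 13 tested genes. Of these, 5 were higher, 2 lower and 6 did not pass (median 0.00), beside 17.4% higher and 27.6% lower of all genes tested. Ppp2ca, a catalytic subunit of phosphatase 2A, Cdk1, which phosphorylates stathmin in mitosis, and the kinase Fyn were 1.55-fold, 2.18-fold and 1.85-fold higher, and the phosphatase 1 subunit Ppp1ca 1.15-fold. Dyrk2, which primes CRMPs for GSK3, and Rock2, which phosphorylates CRMP2, were lower, at 0.747-fold and 0.828-fold.

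Genes known to be switched on in axon regeneration went in both directions. Of 24 tested, 7 were higher, 13 lower and 4 did not pass, where 17.4% of all genes tested were called higher and 27.6% lower. Their median log2 fold change was -0.20, beside -0.06 over all genes tested. The heat shock protein Hspb1, the hyaluronan receptor Cd44, the lectin Lgals1 and the transcription factor Klf6 were lower, at 0.699-fold, 0.755-fold, 0.829-fold and 0.530-fold. The injury transcription factors Atf3 and Jun, named for that role after their values were seen, were lower too, at 0.794-fold and 0.861-fold. The 7 that were higher are Ecel1 (1.92-fold), Arg1 (3.90-fold), Vip (1.93-fold), Npy (1.41-fold), Sprr1a (2.88-fold), Gal (1.65-fold) and Socs3 (1.21-fold). The folds of Arg1 and Sprr1a rest on low levels. Arg1 had 5.07 to 6.61 FPKM in ES and 0.995 to 1.91 FPKM in SCI. Sprr1a had 1.20 to 1.71 FPKM in ES and 0.315 to 0.775 FPKM in SCI. Many genes of this list are also expressed in glia or blood-derived cells.

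As a description over the 6 libraries and 10001 genes of at least 5 FPKM, the levels most like those of Gap43 on the log2(FPKM + 1) scale were those of Arl11, Smc4 and Camsap2 (Pearson r of 0.999, 0.999 and 0.998). For Stmn2 they were Sema4d, Fen1 and Prmt9 (r of 0.999, 0.999 and 0.999). Because the 6 points fall into 2 groups, such values are common, and 10.6% of the genes reached an r of 0.95 with Gap43 and 9.68% with Stmn2.

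Markers of several cell types moved with the groups. The counts below stand beside 17.4% of all genes tested called higher and 27.6% called lower. Of 11 neuron markers, 7 were higher and 4 did not pass, and their summed level was 539.5 to 553 FPKM in ES and 432 to 454 FPKM in SCI. None of them was listed at 0 throughout. Of 8 oligodendrocyte markers all 8 were higher, with sums of 13476 to 13505 FPKM in ES and 8478 to 8561 FPKM in SCI. Precursor markers were 5 higher, 1 lower and 1 not passed of 7 (sums of 329 to 339 FPKM in ES and 208 to 215 FPKM in SCI). Proliferation markers were 7 higher and 1 lower of 8, with sums of 142 to 153 FPKM in ES and 111 to 119 FPKM in SCI. The lower precursor marker was Pdgfra (0.849-fold) and the lower proliferation marker was Aurkb (0.263-fold).

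Myeloid and red cell markers were mostly higher and those of astrocytes, Schwann cells, fibroblasts and vessels mostly lower. Among all genes tested, 17.4% were called higher and 27.6% lower. Microglia markers were 6 higher and 1 lower of 7 (642 to 656 FPKM in ES, 438 to 444 FPKM in SCI), and macrophage markers 6 higher and 1 not passed of 7 (7383 to 7480 FPKM in ES, 4708 to 4823 FPKM in SCI). Neutrophil markers were 4 higher, 1 lower and 1 not passed of 6 (85.9 to 89.5 FPKM in ES, 51.7 to 54.1 FPKM in SCI), and erythrocyte markers 5 higher of 5 (2973 to 3188 FPKM in ES, 519 to 546 FPKM in SCI). Astrocyte markers were 6 lower and 1 not passed of 7 (2178 to 2333 FPKM in ES, 3391 to 3430 FPKM in SCI). Schwann cell markers were 5 lower and 3 higher of 8 (966 to 982 FPKM in ES, 1557 to 1575 FPKM in SCI), and Sox10, one of the 3, is also in the precursor list. Fibroblast markers were 5 lower of 5 (982 to 993 FPKM in ES, 1197 to 1220 FPKM in SCI). Endothelial markers were 3 lower and 1 not passed of 4 tested (48.3 to 48.7 FPKM in ES, 76.9 to 81.1 FPKM in SCI), and another, Cldn5, was listed at 0 in all 6 libraries. The lower microglia marker was Sall1 (0.795-fold) and the lower neutrophil marker was Mmp8 (0.807-fold). The higher Schwann cell markers were Sox10 (1.63-fold), Pllp (1.24-fold) and Ngfr (1.13-fold). The part of these cell types in the levels of the 10 genes was not tested.

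**Figure D4:**
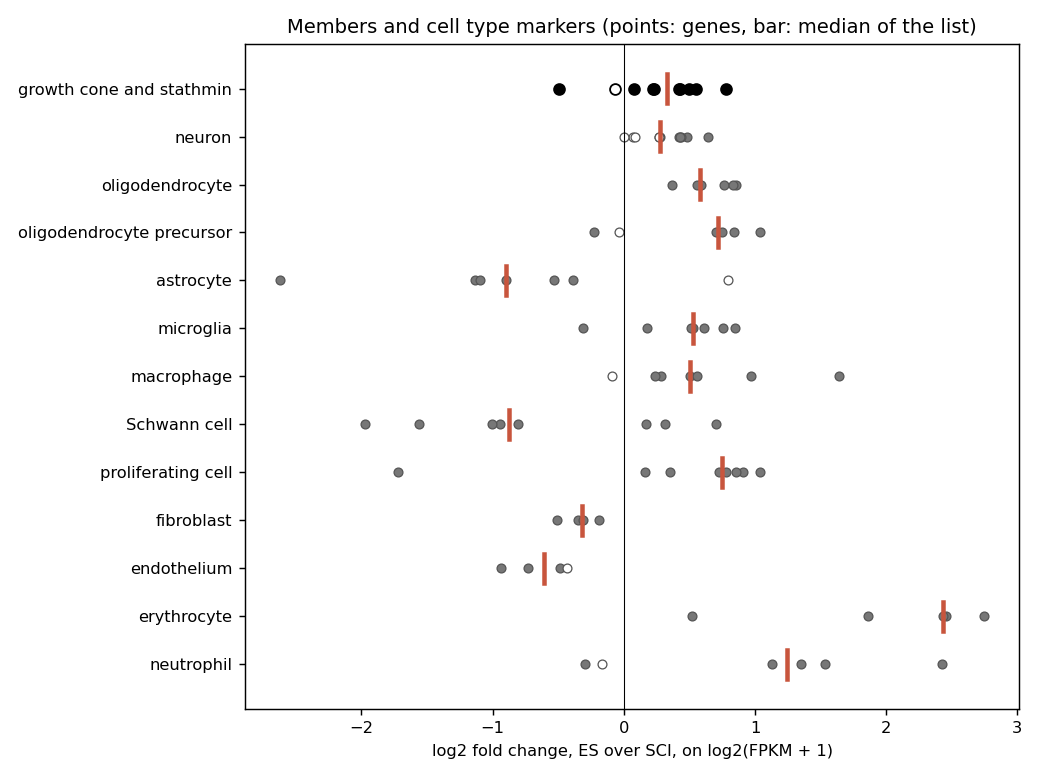
Log2 fold change of ES over SCI (x axis, log2(FPKM + 1) scale) of the 10 growth cone and stathmin genes (top row, large points) and of 12 lists of cell type markers (rows below); filled points have a limma adjusted p under 0.05 and red bars are list medians. The 10 genes have a median of 0.33, beside 0.28 for neuron, 0.58 for oligodendrocyte and -0.90 for astrocyte markers.

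Because neuron markers were themselves higher in ES, each gene was set against their mean in the same library. That mean of 11 markers on the log2(FPKM + 1) scale was 0.31 higher in ES (exact two-sided permutation p = 0.1, the smallest possible). Relative to it, Stmn4 and Stmn2 stood above in ES by 0.47 and 0.25, with no overlap between the groups. Stmn1 stood above by 0.19, also without overlap, but with a pseudocount of 0.1 its groups overlapped (0.13, exact permutation p = 0.2). Gap43 and Stmn3 differed by 0.12 each, and their groups overlapped (exact permutation p = 0.2 and 0.3). With a pseudocount of 0.1 their differences were 0.065 and 0.070. The groups separated for Gap43 when any 1 of 4 markers (Tubb3, Syt1, Rbfox3 or Elavl4) was left out, and for Stmn3 without Rbfox3. The differences of Dpysl3, Basp1, Marcks and Dpysl2 were -0.80, -0.37, -0.23 and -0.08, with no overlap. Those of Dpysl2 overlapped when any 1 of 7 of the 11 markers was left out. Marcksl1 differed by -0.08 with overlap (exact permutation p = 0.6). The 7 genes without overlap had the smallest exact permutation p of 0.1, which is 0.143 after adjustment over the 10 genes. With 3 libraries per group, this test could pass none of the differences at 0.05.

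Estimated depth was 13946100 to 16146400 read pairs per library in ES and 16336800 to 18608300 in SCI. Over all tested genes, libraries correlated at 0.983 to 0.986 within groups and at 0.962 to 0.965 between them. Of 15750 genes tested, 45% were called, 2747 higher and 4341 lower in ES. That split depends on the scaling. It was 3414 and 3257 after quantile normalization, 2070 and 5584 after rescaling to equal totals, and 4021 and 2975 after median centring. Under those 3 scalings Stmn1 to Stmn4, Gap43 and Dpysl2 stayed called as higher and Dpysl3 as lower.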

How the data were processed

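Poly(A) RNA from spinal cord was made into stranded paired-end libraries, per the labels' protocols, and samples were grouped by their treatment labels. The authors deposited FPKM per library for genes and transcripts, writing 0.0001 in place of 0, which was set back to 0. The submitters' processing notes name HISAT and StringTie without version or role, and no source used here states the genome build or annotation. A fold ratio, its log2, a p-value and a q-value were also deposited, per the file headers. Their fold is the ratio of mean FPKM in ES over SCI, and no source used here states the test behind the p-value.

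Since the values are FPKM and not counts, features with a mean of at least 0.5 FPKM were tested two-sided with limma 3.58.1 (R 4.3.3, mean-variance trend) on log2(FPKM + 1), with Benjamini-Hochberg adjustment over all features tested. Fold changes on this scale understate those of low genes, and each fold printed is a ratio of group means. Transcript usage was tested with diffSplice. Single ratios were tested by exact permutation over the 6 libraries. Fragment shares are transcript FPKM times length over the gene's sum. Gene values matched the fragments over 1 fixed length in 13305 of 13305 genes, within a relative tolerance of 0.001. The smallest steps of FPKM times length gave the depth, taking 1 step as 1 read pair. How reads matching several places were assigned is not stated, so genes with near-identical copies are less certain. The tests were tried on simulated data. Other settings were a pseudocount of 0.1 or 0.01, a filter of 2 FPKM or none, 3 scalings, no trend, quality weights, each library left out, a replicate block, an adjusted p under 0.1 and log2 minimums of 1 and 0.3.

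The 10 genes and all lists were chosen with earlier results of these data known. From each list other than those of cell type markers the text names up to 4 genes by smallest p, and those that went against most of their list. For the marker lists, those called against most of their list are named. Promoters came from RefSeq GRCr8, whose coordinates differ from those of the files. Gap43, Stmn2, Stmn4 and Dpysl2 have no entry in the promoter table used here. Mapre2, Calm3, Pip4k2a, Pfn2, Ablim1, Col1a2 and Pecam1 were listed and not analysed here.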

Additional observations from a re-analysis of the deposited data

How the results depend on the processing

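Of 160 gene-level values for the 10 genes under the other settings, 149 kept their direction and side of the threshold, 9 lost a call (all of Marcks), 1 gained one and 1 changed direction. Of 286 transcript values, 262 kept both, 18 lost a call, 1 gained one and 5 changed direction. Basp1 turned to 0.026 after median centring as a gene and to 0.031 as a transcript. The proximal-start Dpysl3 transcript turned to 0.055 under quantile normalization and to 0.018 under median centring, and with single libraries left out it ranged from -0.17 to 0.066. None of these was called, and the cause was not tested.

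A log2 minimum of 1 left 424 genes, 599 transcripts, 2 of the 17 transcripts (both of Stmn1 and lower), and of the 10 genes 0 higher and 0 lower with limma, beside 7 and 1 at an adjusted p alone. A minimum of 0.3 left 4569 genes. With each library left out in turn, 5907 to 6430 genes, 4713 to 5257 transcripts and 268 to 324 usage genes were called, and of the 10 genes 6 higher and 1 lower each time and 8 to 10 of their transcripts. Of 120 values relative to the neuron markers, 115 moved by less than the spread between libraries. With a pseudocount of 0.1 the differences were 0.42 for Stmn4, -0.28 for Marcks, -0.13 for Dpysl2 and -0.87 for Dpysl3, and without Rbfox3 among the markers that of Marcks was -0.19. The groups stayed apart under all 12 of these settings for Stmn4, Stmn2, Basp1, Marcks and Dpysl3, and not for Stmn1 and Dpysl2.

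Replicate numbers were shared between the groups, but over all tested genes same-numbered libraries did not deviate together (correlations of -0.026, -0.026 and -0.029). Whether a number marks a shared animal or day is not stated, and these correlations cannot settle it. With the number as a block, 6317 genes, 4543 transcripts and 285 usage genes were called. Of the 10 genes 7 were higher and 1 lower, since Marcksl1 passed (adjusted p = 0.0306) and Marcks did not (0.0878), and 9 of their transcripts were called. Depth, 3 libraries per group and FPKM without counts limit the precision of small changes such as that of Marcks.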
